A study of Mus musculus with 6 samples.

Results

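Collagens are the main structural proteins of connective tissue. Each molecule is a triple helix of chains, and most types are built from chains of different genes. Fibrillar collagens (types I, II, III, V, XI, XXIV and XXVII) pack into fibrils, in which type V is known to start assembly. Type IV forms the sheet-like network of basement membranes and type VI forms beaded filaments around cells. The remaining types include chains that decorate fibrils, anchor epithelia or span the membrane. In the lung, fibroblasts make most fibrillar and type VI collagen, and an excess of fibrillar collagen is the hallmark of fibrosis.

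The genes described are the protein-coding rows of the deposited expression table that are named as collagen chains, 44 of 54532 genes, belonging to 27 types. They comprised 11 fibrillar chains, 6 of type IV, 6 of type VI and 21 of other types. RNA came from cells labelled primary mouse lung fibroblasts, in 3 libraries titled calumenin KD and 3 titled NC, an abbreviation the labels do not spell out. The sample descriptions call these libraries KO and WT, the design text speaks of knocking calumenin out or down without saying which applies here, and the labels give no strain or age of the mice. Calumenin, the product of Calu, binds calcium in the secretory pathway, whose first compartment, the endoplasmic reticulum, is where collagen chains are folded. The stated aim was to examine senescence and fibrosis signalling after loss of calumenin.

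Values are FPKM, sequenced fragments scaled for gene length and a library size that was not the plain read total. Differences are KD minus NC on the log2(FPKM + 1) scale, and a chain is called higher or lower at a Benjamini-Hochberg adjusted p under 0.05 in limma, a linear model fitted across the 12299 genes that averaged 1 FPKM or more. Depth was 16191536 to 18312888 reads in KD and 15907164 to 16280183 in NC. Calu averaged 13.4 ± 1.07 FPKM in KD and 224 ± 3.43 FPKM in NC (SD, n = 3 each). The labels do not say whether replicates were separate cultures, so the p-values reflect only how far these libraries differed among themselves, possibly for technical reasons. Of 9 fibroblast markers, Vim, Fn1, Pdgfra, Pdgfrb and Twist2 were above 1 FPKM, while Lum and Tcf21 had no reads and Dcn and Thy1 averaged 0.00538 and 0.115 FPKM. The summed level of that list was 865 to 939 FPKM in KD and 802 to 836 FPKM in NC, with Fn1 and Pdgfra higher and Pdgfrb lower in KD. Summed markers of lung epithelium (0.238 to 1.06 FPKM in KD and 0.439 to 0.62 in NC) and endothelium (0.166 to 0.205 FPKM in KD and 0.148 to 0.196 in NC) were near 0. Macrophage markers summed to 3.19 to 5.001 FPKM in KD and 4.75 to 5.64 in NC, with the defining gene Adgre1 at 0. Smooth muscle and pericyte markers summed to 45.9 to 60.8 FPKM in KD and 54.9 to 58.8 in NC, most of it Cspg4, with Rgs5 at 0 and Acta2 at 0.0506 FPKM on average. Mesothelial markers summed to 10.4 to 14.3 FPKM in KD and 13.7 to 14.8 in NC, nearly all of it Msln, and cartilage markers to 4.9 to 5.59 FPKM in KD and 3.67 to 4.16 in NC, with Acan and Hapln1 at 0. The part of these markers in the collagen results was not tested.

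Collagen chains moved in both directions. Of the 44 chains 16 had a mean of at least 1 FPKM, and of these 3 were higher in KD (Col1a1, Col5a1 and Col4a5), 6 were lower (Col3a1, Col5a2, Col5a3, Col6a1, Col6a2 and Col6a3) and 7 did not pass. These calls were 18.8% and 37.5% of the tested chains, beside 10.9% higher and 13.6% lower among all tested genes. The median difference of the 16 chains was 0.03, against 0.01 for all tested genes, and their median absolute difference was 0.43 against 0.18. The chains were also more abundant than most genes, with 13 of the 16 above the 75th percentile of mean FPKM. In 12 of the 16 the groups did not overlap, 6 with KD above NC and 6 with KD below it, where 21.3% and 22.9% of tested genes were so placed. The cells are a bulk sample, so fewer cells making a chain and less RNA per cell cannot be told apart.

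Total collagen FPKM, as deposited, overlapped between the groups. Summed over the 44 chains it was 1219, 1384 and 1430 FPKM in KD1, KD2 and KD3, against 1233, 1196 and 1222 FPKM in NC1, NC2 and NC3. KD1 lay within the NC range, and the mean was 1344 ± 111 FPKM in KD and 1217 ± 19.1 FPKM in NC (SD, n = 3 each, exact two-sided permutation p = 0.3). The 16 tested chains carried 99.7% of this sum in both groups. The overlap depended on the scaling and on KD1. As a share of all FPKM, collagens made up 0.4344%, 0.4985% and 0.4989% in KD1, KD2 and KD3. In NC1, NC2 and NC3 they made up 0.4301%, 0.4182% and 0.422%, without overlap. With equal total FPKM, or without KD1, the exact two-sided permutation p of the sum was 0.1. Fibrillar chains made up 65.4 ± 1.24% of collagen FPKM in KD and 58.9 ± 0.55% in NC, and type VI made up 12.4 ± 0.7% in KD and 19.3 ± 0.29% in NC. The larger fibrillar share came mostly from Col1a1, with 21.1% in KD and 12.2% in NC, and Col5a1 had 5.15% and 4.26%. Other fibrillar chains had smaller shares in KD, namely Col5a3 (2.42%, against 4.15% in NC), Col5a2 (2.27%, against 3.0%) and Col3a1 (0.81%, against 2.02%). Type IV made up 13.9 ± 1.1% in KD and 14.1 ± 0.27% in NC, and the other types 8.32 ± 0.72% in KD and 7.73 ± 0.21% in NC. On the log2 scale the summed fibrillar level differed by 0.29 and the summed type VI level by -0.50, without overlap between the groups, each with an exact two-sided permutation p = 0.1, the smallest that 3 libraries against 3 can give.

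**Figure D1:**
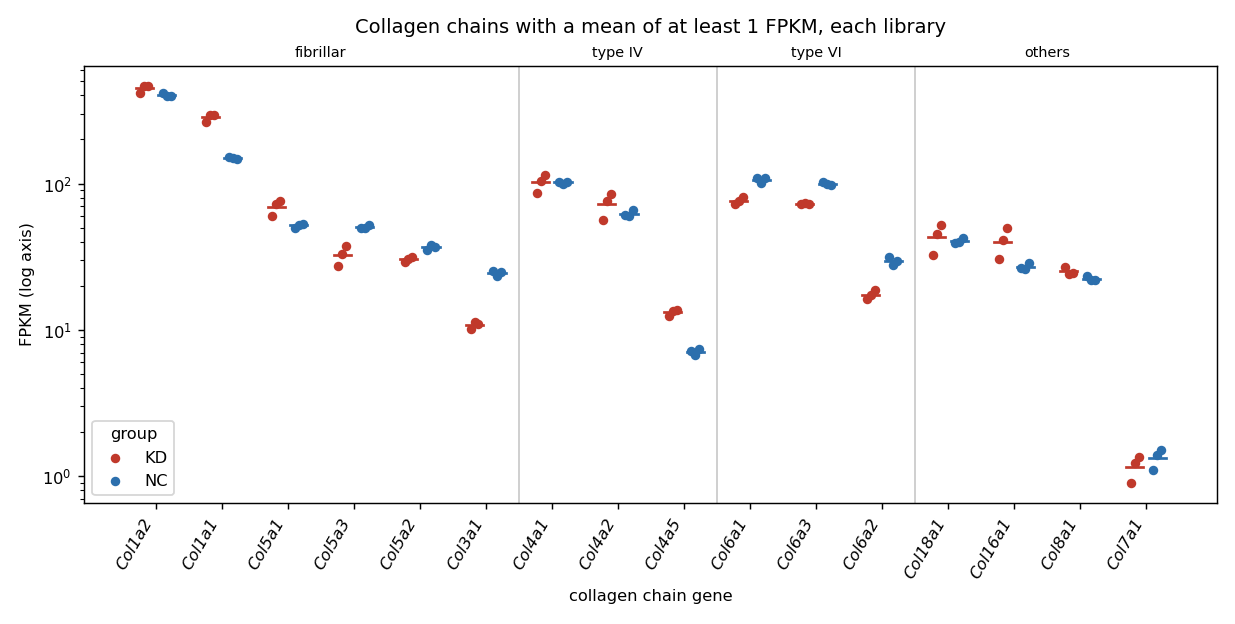
FPKM on a log axis for the 16 collagen chains with a mean of at least 1 FPKM, grouped by type, with KD left of NC. Each point is a library and each line the mean of 3. Col1a1, Col5a1 and Col4a5 lie higher in KD, all 3 type VI chains and Col3a1 lie lower, and the KD points of Col4a2, Col18a1 and Col16a1 are spread widely.

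The sequences that precede the start sites of called chains are shown because several of these genes lie beside a partner chain and moved with it or apart from it. They are RefSeq sequences of GRCm38.p6, the build also called mm10, and 35 of the 44 chains had an entry, among them 7 of the 9 called chains (not Col1a1 or Col5a2). Up to 250 bases before the annotated start are printed in the direction of transcription, without any base that GENCODE M21 places in an exon, and Col4a6 is added as the neighbour of Col4a5. Capitals mark 3 motifs, searched on both strands, so that a run of capitals can be the reverse complement. The CCAAT box was searched as CCAAT. The letters of the GC box were GGGCGG. Those of the TATA box were TATAAA. Among all 32851 promoters in the table the same 250 bases held CCAAT in 33.9%, GGGCGG in 32.7% and TATAAA in 12.4%. For Col4a5 and Col6a1 the RefSeq start lies inside the GENCODE exon, so the 216 and 126 bases printed are the part of the RefSeq window farther from its start and adjoin the GENCODE start. Over the same positions of all RefSeq windows the CCAAT, GC and TATA box letters were held by 30.5%, 27.9% and 9.80% for 216 bases and by 16.9%, 13.5% and 6.27% for 126 bases. Over as many bases next to the RefSeq start the shares were 30.8%, 31.6% and 10.8% for 216 bases and 21.97%, 26.98% and 6.62% for 126 bases. None of the marked motifs overlapped another.
Col3a1 (chr1:45311288-45311537, plus strand): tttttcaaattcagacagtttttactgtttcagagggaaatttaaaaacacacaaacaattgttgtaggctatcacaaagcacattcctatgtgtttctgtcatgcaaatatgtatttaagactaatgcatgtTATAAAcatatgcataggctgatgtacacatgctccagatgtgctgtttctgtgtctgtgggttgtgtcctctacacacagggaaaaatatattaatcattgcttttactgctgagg
Col5a1 (chr2:27886175-27886424, plus strand): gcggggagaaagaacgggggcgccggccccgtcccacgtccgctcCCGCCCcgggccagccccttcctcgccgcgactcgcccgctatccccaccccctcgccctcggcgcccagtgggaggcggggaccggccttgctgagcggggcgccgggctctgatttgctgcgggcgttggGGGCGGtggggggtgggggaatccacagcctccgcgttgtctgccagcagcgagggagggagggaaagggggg
Col5a3 (chr9:20815068-20815317, minus strand): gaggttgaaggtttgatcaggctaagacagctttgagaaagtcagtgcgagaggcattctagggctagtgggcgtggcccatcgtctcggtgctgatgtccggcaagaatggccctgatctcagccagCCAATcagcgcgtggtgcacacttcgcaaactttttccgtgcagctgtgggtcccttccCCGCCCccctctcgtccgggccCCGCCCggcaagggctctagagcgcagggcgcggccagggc
Col4a5 (chrX:141475169-141475384, plus strand): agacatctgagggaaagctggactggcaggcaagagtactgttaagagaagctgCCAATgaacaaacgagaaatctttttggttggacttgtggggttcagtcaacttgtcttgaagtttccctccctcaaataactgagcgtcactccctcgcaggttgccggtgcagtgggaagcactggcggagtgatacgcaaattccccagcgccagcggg
Col4a6 (chrX:141474077-141474326, minus strand): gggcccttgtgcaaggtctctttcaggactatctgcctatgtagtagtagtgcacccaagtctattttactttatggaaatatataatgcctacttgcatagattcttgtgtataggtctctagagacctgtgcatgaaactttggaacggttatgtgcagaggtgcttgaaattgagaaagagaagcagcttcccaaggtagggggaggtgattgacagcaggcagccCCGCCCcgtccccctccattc
Col6a1 (chr10:76726169-76726294, minus strand): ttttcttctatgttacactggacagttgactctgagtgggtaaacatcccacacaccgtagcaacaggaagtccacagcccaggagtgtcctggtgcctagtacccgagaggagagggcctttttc
Col6a2 (chr10:76623631-76623880, minus strand): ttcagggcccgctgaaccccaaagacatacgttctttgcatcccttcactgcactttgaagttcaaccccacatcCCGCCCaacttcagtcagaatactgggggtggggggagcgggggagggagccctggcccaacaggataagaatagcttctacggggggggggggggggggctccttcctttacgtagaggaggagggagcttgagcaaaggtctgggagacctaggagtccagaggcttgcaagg
Col6a3 (chr1:90843972-90844221, minus strand): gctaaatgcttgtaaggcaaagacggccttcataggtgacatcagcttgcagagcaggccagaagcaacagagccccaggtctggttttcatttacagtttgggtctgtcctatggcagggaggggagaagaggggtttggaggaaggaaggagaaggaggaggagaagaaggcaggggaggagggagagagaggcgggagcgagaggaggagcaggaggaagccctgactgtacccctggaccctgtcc
Col3a1 held 1 TATAAA and neither other motif, Col4a5 held 1 CCAAT, and Col4a6 held 1 GGGCGG. Col5a1 held 2 GGGCGG and Col5a3 held 2 GGGCGG and 1 CCAAT. The type VI chains, which all fell, did not share a motif, with 1 GGGCGG for Col6a2 and none of the motifs for Col6a1 and Col6a3. GC content of these stretches ran between 35.2% for Col3a1 and 76.4% for Col5a1. A match is a description of the letters and does not show binding.

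Of the chains of type I collagen, the main fibril-forming collagen, Col1a1 rose and Col1a2 did not pass. Col1a1 (chromosome 11, 94936224 to 94953042, plus strand), which contributes most chains of the type I trimer, had 265, 294 and 292 FPKM in KD1, KD2 and KD3, against 152, 148 and 146 FPKM in NC1, NC2 and NC3. All KD libraries lay far above all NC libraries. The mean was 284 ± 16.2 FPKM in KD and 149 ± 2.94 FPKM in NC (SD, n = 3 each), a ratio of 1.90 and a log2 difference of 0.92 (SE 0.06, limma adjusted p = 0.000193). Col1a2 (chromosome 6, 4504814 to 4541544, plus strand), the other type I chain and the most abundant collagen RNA by deposited FPKM, had 418, 467 and 466 FPKM in KD, against 414, 398 and 399 FPKM in NC. KD1 stood just above NC1, and the difference of 0.16 (SE 0.06) did not pass (limma adjusted p = 0.122). It passed without KD1 (0.21, adjusted p = 0.00732), with chromosome medians removed (0.37, adjusted p = 0.00971) and in voom, a fit to the reads recovered from FPKM (adjusted p = 0.0318). The median difference on chromosome 6 was -0.22 over 598 tested genes. In 15 of 18 alternative settings Col1a2 did not pass, among them removal of the GC and length trend (0.08, adjusted p = 0.155).

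The ratio of Col1a1 to Col1a2 FPKM was 0.634, 0.629 and 0.626 in KD, against 0.368, 0.373 and 0.367 in NC, so the groups were tight and far apart. The log2 ratio, computed from FPKM + 1 here and for the pairs below, differed by 0.77 (exact two-sided permutation p = 0.1, 0.117 adjusted over the 7 pairs compared). FPKM levels of different chains depend on the deposited gene length, which for Col1a2 was 12426 bases, 2.32 times its longest coding transcript in GENCODE M21, and for Col1a1 only 1.11 times. Levels of Col1a2 relative to Col1a1 therefore rest on that length, while the difference between groups in this ratio hardly does. Sums and shares over several chains do rest on such lengths, also in their differences between groups. The deposited length was 1.79 times the longest coding transcript for Col6a2 and 1.76 times for Col3a1. As a share of all collagen FPKM, Col1a1 made up 21.1 ± 0.66% in KD and 12.2 ± 0.24% in NC, and Col1a2 33.5 ± 0.84% in KD and 33.2 ± 0.46% in NC.

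Col3a1, the single chain of type III collagen, which forms fibrils together with type I in compliant tissues, fell most of all tested chains on the log2 scale. It had 10.2, 11.3 and 11.04 FPKM in KD, against 25.3, 23.5 and 24.9 FPKM in NC, and the groups were well apart. The mean was 10.9 ± 0.59 FPKM in KD and 24.6 ± 0.93 FPKM in NC (SD, n = 3 each), a ratio of 0.443 and a log2 difference of -1.11 (SE 0.06, limma adjusted p = 0.000111). The Col1a1 to Col3a1 ratio was 25.9, 25.9 and 26.4 in KD, against 6.02, 6.32 and 5.88 in NC, a log2 difference of 2.03 (exact two-sided permutation p = 0.1).

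The chains of type V collagen, a minor fibril component that limits fibril width, divided. Col5a1, the chain found in most type V molecules, had 59.8, 72.7 and 75.7 FPKM in KD, against 49.999, 52.2 and 53.0 FPKM in NC, a difference of 0.41 (SE 0.09, limma adjusted p = 0.022). Its partner Col5a2 had 28.9, 30.7 and 31.6 FPKM in KD, against 35.3, 37.7 and 36.6 FPKM in NC, a difference of -0.26 (SE 0.06, limma adjusted p = 0.0216). Col5a3, a chain of a rarer type V molecule, had 27.5, 33.05 and 37.6 FPKM in KD, against 49.9, 49.8 and 51.8 FPKM in NC, a difference of -0.62 (SE 0.11, limma adjusted p = 0.00879). None of the 3 chains overlapped between groups, and the ratio of Col5a1 to Col5a2 was 2.07, 2.37 and 2.39 in KD, against 1.42, 1.38 and 1.45 in NC, a log2 difference of 0.67 (exact two-sided permutation p = 0.1). The calls for Col5a1 and Col5a2 were near the threshold. Leaving out NC1, NC2, NC3 or KD2 ended both, with limma adjusted p of 0.0664 to 0.0866 for Col5a1 and 0.0622 to 0.1 for Col5a2. Col5a2 also did not pass with chromosome medians removed (-0.10, adjusted p = 0.255), and Col5a1 not without the filter (adjusted p = 0.0539). Col5a1 overlaps a transcript of the other strand, Gm13372, at 9.56 FPKM on average, and without a stated strand setting their reads cannot be told apart.

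Col3a1 and Col5a2 are neighbours on chromosome 1, at 45311538 to 45349706 on the plus strand and 45374321 to 45503282 on the minus strand. Their ends face each other across 24614 bases with no protein-coding gene between them. Both fell, by unequal amounts: the ratio of Col3a1 to Col5a2 was 0.353, 0.369 and 0.349 in KD, against 0.717, 0.623 and 0.679 in NC, a log2 difference of -0.85 (exact two-sided permutation p = 0.1). The median difference of all 713 tested genes on chromosome 1 was -0.15, and with chromosome medians removed Col3a1 still differed by -0.96 (adjusted p = 0.000195).

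Of type IV collagen, the widespread chains Col4a1 and Col4a2 did not pass and Col4a5 rose. Col4a1 and Col4a2 together form the network of nearly all basement membranes. Col4a1 had 86.6, 104 and 115 FPKM in KD, against 103, 99.3 and 103 FPKM in NC, a difference of -0.01 (SE 0.10, limma adjusted p = 0.972), and its sign turned in 6 of 18 alternative settings. Col4a2 had 56.1, 75.4 and 85.02 FPKM in KD, against 61.1, 60.4 and 65.6 FPKM in NC, a difference of 0.19 (SE 0.15, limma adjusted p = 0.386). For both, KD1 lay below all NC libraries and KD3 above them. Without KD1, Col4a2 passed (0.36, adjusted p = 0.00846) and Col4a1 did not (0.10, adjusted p = 0.15).

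Col4a5, whose product is known to assemble with those of Col4a3 and Col4a4 or of Col4a6 in specialised basement membranes, had 12.5, 13.5 and 13.7 FPKM in KD, against 7.18, 6.72 and 7.40 FPKM in NC. The groups did not overlap. The mean was 13.2 ± 0.6 FPKM in KD and 7.10 ± 0.35 FPKM in NC (SD, n = 3 each), a ratio of 1.86 and a log2 difference of 0.81 (SE 0.06, limma adjusted p = 0.000388). RNA of the known partners was close to 0. Over the 3 libraries of each group Col4a3 had 25 reads in KD and 23 in NC, Col4a4 had 7 in KD and 22 in NC, and Col4a6 had 2 in KD and 7 in NC.

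All 6 type IV genes lie in start-to-start pairs. Col4a5 (X, 141475385 to 141689234, plus strand) and Col4a6 (X, 141165403 to 141474076, minus strand) start 1308 bases apart, the stretch from which both sequences above were taken, and only Col4a5 had more than 20 reads over a group. Col4a1 and Col4a2 on chromosome 8 overlap at their starts by 22 bases, were both abundant, and ranked the KD libraries in the same order. That order was not particular to this pair, since KD1 was lowest in 14 and KD3 highest in 11 of the 16 tested chains. The ratio of Col4a1 to Col4a2 was 1.54, 1.38 and 1.35 in KD, against 1.69, 1.64 and 1.57 in NC, a log2 difference of -0.19 (exact two-sided permutation p = 0.1). Col4a3 and Col4a4 on chromosome 1 start 71 bases apart and were both near 0. Chromosome 8 had a median difference of 0.17 over 653 tested genes, and with it removed Col4a1 differed by -0.18 and Col4a2 by 0.01.

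All 3 expressed chains of type VI collagen fell. They are the subunits that join into the common type VI molecule. Col6a1 had 72.6, 75.7 and 80.5 FPKM in KD, against 109, 100.2 and 109 FPKM in NC. Col6a2 had 16.2, 17.2 and 18.8 FPKM in KD, against 31.3, 27.5 and 29.6 FPKM in NC. Col6a3 had 72.5, 73.7 and 72.3 FPKM in KD, against 102, 99.7 and 97.8 FPKM in NC. No KD value reached the NC range for any of the 3. Differences were -0.47 (SE 0.06, limma adjusted p = 0.00359) for Col6a1, -0.73 (SE 0.08, adjusted p = 0.00136) for Col6a2 and -0.45 (SE 0.05, adjusted p = 0.00139) for Col6a3. Each stayed past the threshold when any 1 library was left out, with adjusted p of at most 0.0261.

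Col6a2 and Col6a1 follow each other on the minus strand of chromosome 10, at 76595762 to 76623630 and 76708792 to 76726168, with 85161 bases and no protein-coding gene between them, while Col6a3 lies on chromosome 1 at 90765923 to 90843971. The ratio of Col6a1 to Col6a2 was 4.48, 4.401 and 4.28 in KD, against 3.46, 3.64 and 3.69 in NC, a log2 difference of 0.26 (exact two-sided permutation p = 0.1). Col6a1 to Col6a3 was 1.002, 1.03 and 1.11 in KD, against 1.07, 1.01 and 1.12 in NC, so these groups overlapped (log2 difference -0.02, exact two-sided permutation p = 0.7). The median difference on chromosome 10 was -0.19 over 595 tested genes. With chromosome medians removed the differences were -0.28 for Col6a1 (adjusted p = 0.0261), -0.54 for Col6a2 (0.00497) and -0.30 for Col6a3 (0.00783). The alternative type VI chains Col6a4, Col6a5 and Col6a6, 3 neighbours on chromosome 9, had at most 8 reads over the 3 libraries of a group.

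**Figure D2:**
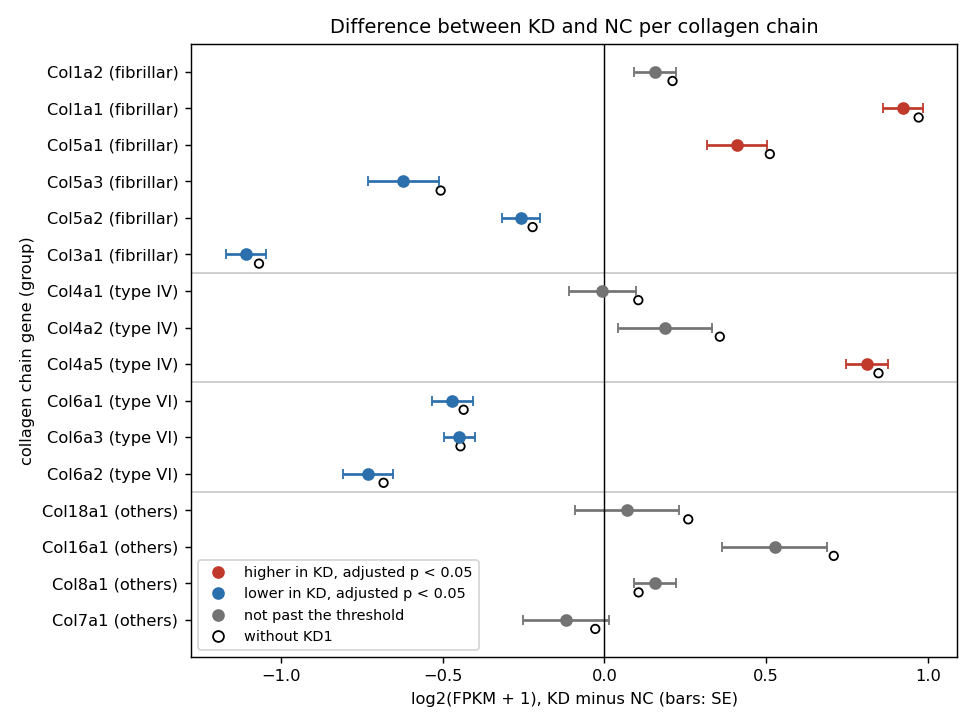
Difference in log2(FPKM + 1) between KD and NC for each of the 16 tested chains, with SE bars from limma, and open circles for the value without KD1. The 3 type VI chains lie between -0.73 and -0.45, while fibrillar chains span -1.11 (Col3a1) to 0.92 (Col1a1).

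**Figure D3:**
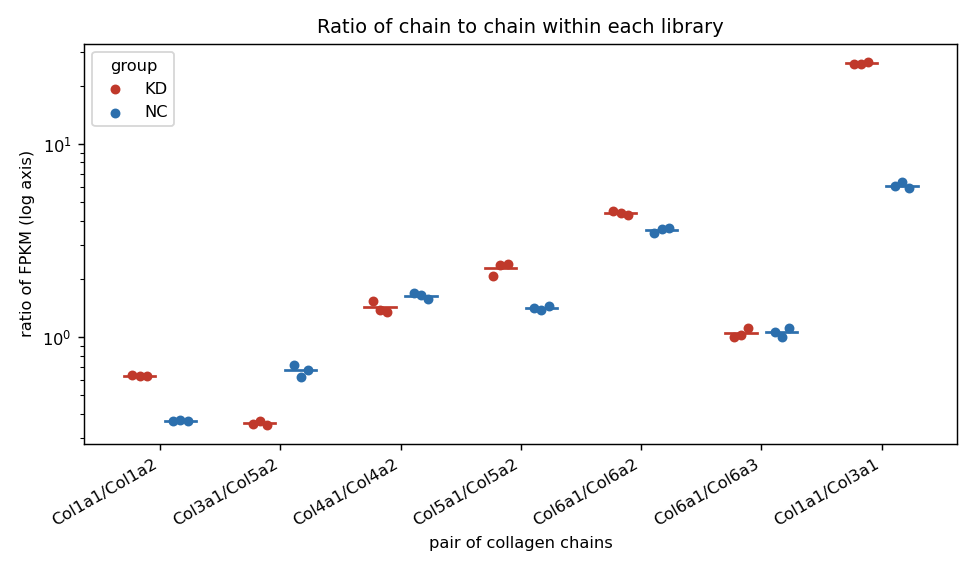
Ratio of FPKM between pairs of chains within each library on a log axis, with KD left of NC and lines for the mean of 3. The groups do not overlap for 6 of the 7 pairs, and Col6a1/Col6a3 is the pair that overlaps.

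None of the 4 tested chains of other types passed. Col16a1, a chain that attaches to fibrils and microfibrils, had 30.3, 40.8 and 49.3 FPKM in KD, against 26.6, 26.01 and 28.7 FPKM in NC. All KD values were above NC, but they were spread so widely that the difference of 0.53 (SE 0.16) stayed short of the threshold (limma adjusted p = 0.0584). It passed without KD1 (0.71, adjusted p = 0.00233), in voom (adjusted p = 0.023), with array weights (0.0144), with the GC and length trend removed (0.41, adjusted p = 0.0155), and narrowly with a 5 FPKM filter (0.0489) or equal totals (0.0429). Col18a1, the basement membrane chain from which endostatin is cut, had 32.5, 45.4 and 51.8 FPKM in KD, against 39.2, 39.7 and 42.2 FPKM in NC. The difference was 0.07 (SE 0.16, limma adjusted p = 0.781), and without KD1 it was 0.26 (adjusted p = 0.0265). Col18a1 shares its locus with Slc19a1 of the other strand, at 18.1 FPKM, which together with Pcbp3 separates it from Col6a1 on the same strand. Col8a1, a short-chain network collagen of vessel walls, had 26.99, 24.05 and 24.3 FPKM in KD, against 23.3, 21.9 and 21.96 FPKM in NC, a difference of 0.16 (SE 0.07, limma adjusted p = 0.127). It passed in voom (adjusted p = 0.0478) and with the GC and length trend removed (0.22, adjusted p = 0.00896). Col7a1, of the anchoring fibrils under epithelia, had 0.893, 1.23 and 1.34 FPKM in KD, against 1.10, 1.39 and 1.52 FPKM in NC, and these overlapped (difference -0.12, limma adjusted p = 0.552).

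The spread within KD moved with GC content. KD1 was the lowest of the KD libraries for 14 of the 16 chains, where 43.9% of all tested genes had KD1 lowest. Read counts of KD1 against KD2 and KD3 gave chi-square statistics of 20.4 and 34.3 per degree of freedom, against 4.97 for KD2 with KD3 and 2.39 to 3.43 between NC libraries. The chains were GC-rich, 12 of the 16 being above the 75th percentile of tested genes, with a median of 57.2% against 49.3%. Across the 16 chains the log2 gap between KD3 and KD1 ran with GC content (Pearson r = 0.815, Spearman rho = 0.835), a description only, since the chains share the same libraries. Over all tested genes the deviation of each library from the 6-library mean correlated with GC content at rho -0.411 in KD1, 0.343 in KD2 and 0.492 in KD3, and between -0.238 and -0.0407 in NC. The cause was not tested. Without KD1, 7 chains were higher and 6 lower, beside 20.9% and 21.5% of all tested genes. The added chains were Col1a2, Col4a2, Col16a1 and Col18a1, at GC percentiles between 82.35 (Col1a2) and 98.16 (Col16a1) of tested genes. With all 6 libraries and the GC and length trend removed, only Col16a1 of these passed. The differences there were 0.08 for Col1a2 (limma adjusted p = 0.155), 0.08 for Col4a2 (0.47) and -0.04 for Col18a1 (0.741). Removal of the trend with GC and length left 5 chains higher and 6 lower, beside 19.4% and 18% of genes. Voom, which also scaled the libraries otherwise than the deposited FPKM, called 6 higher and 6 lower, beside 14.9% and 13.2%. Removal of chromosome medians gave 4 higher and 5 lower, beside 8.72% and 10.9%.

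**Figure D4:**
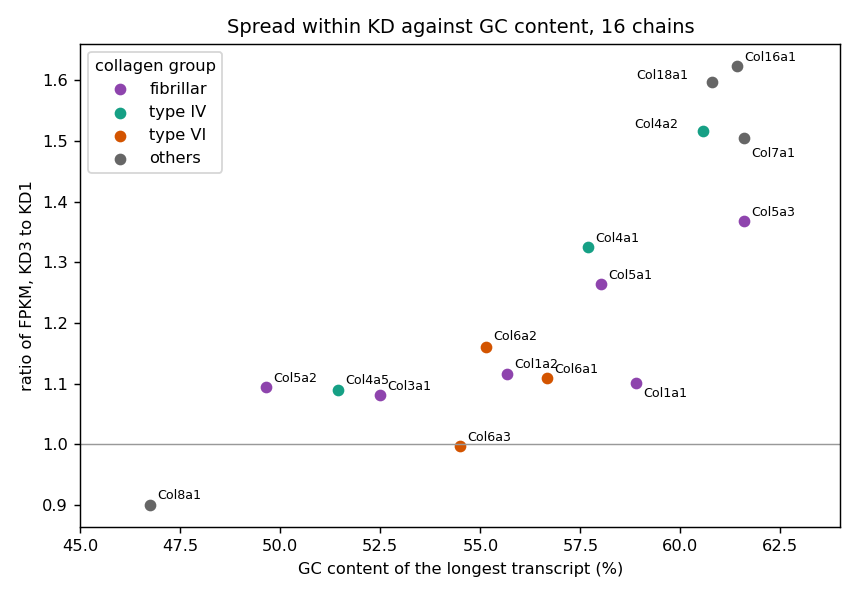
Ratio of KD3 to KD1 FPKM against the GC content of the longest transcript for the 16 tested chains, coloured by type, with a line at a ratio of 1. Chains over 60% GC, such as Col16a1 (1.62), Col18a1 (1.60) and Col4a2 (1.52), have the largest gaps, and Col8a1, the least GC-rich chain, lies at 0.901.

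The other 28 chains averaged under 1 FPKM and did not enter the main test. Of these, Col11a1 of cartilage fibrils and the transmembrane chain Col13a1 had 0 reads in all 6 libraries, where 3 reads correspond to between 0.164 and 0.189 CPM. In 9 the groups did not overlap, 2 with KD above NC and 7 with KD below. Among protein-coding genes below the filter with at least 1 read, 6.74% and 13% were so placed. Col9a1, a chain known from the surface of cartilage fibrils, had 92, 96 and 81 reads in KD, against 17, 28 and 26 in NC, and averaged 1.02 ± 0.11 FPKM in KD and 0.293 ± 0.07 FPKM in NC (SD, n = 3 each). The depth-scaled ratio was 3.58 (95% interval 2.75 to 4.72, counting error only), and Col9a1 was 1 of the 2 chains past limma without the filter (difference 0.65, SE 0.09, adjusted p = 0.0125), beside 3.51% of genes higher and 5.37% lower in that fit. The summed cartilage markers, with Sox9 and Comp as their main members, were also higher in all KD libraries, and their part was not tested. Of the 2, Sox9 overlapped between the groups and did not pass (limma adjusted p = 0.314). Comp, below the filter and so not in the main test, had 1.15, 1.22 and 1.3 FPKM in KD, against 0.294, 0.339 and 0.276 in NC. The type IX partners of Col9a1 were not higher in KD. Col9a2 had 1 read in each group. Col9a3 had 11, 18 and 19 reads in KD, against 34, 24 and 26 in NC. Col19a1, which ends 9205 bases from the end of Col9a1 on chromosome 1, had 10 reads in KD and 9 in NC.

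Col12a1, a fibril-associated chain of tendon, skin and wounds, was the second, and it fell. It had 49, 46 and 45 reads in KD, against 137, 113 and 144 in NC, a ratio of 0.336 (95% interval 0.275 to 0.408, counting error only) and a difference of -0.39 (SE 0.06, limma adjusted p = 0.0147 without the filter). Col11a2 had 80, 73 and 94 reads in KD, against 61, 45 and 63 in NC (ratio 1.38, interval 1.13 to 1.69). Col20a1 had 97 reads over the KD libraries and 147 over NC (ratio 0.624, interval 0.478 to 0.812), and it shares its locus with the same-strand transcript 9230112E08Rik at 2.35 FPKM. Col28a1 had 3 reads in KD and 29 in NC, a ratio of 0.0978 with an interval of 0.0191 to 0.316. Col15a1, a basement membrane relative of Col18a1, had 16 reads in KD and 35 in NC, and Col23a1 had 6 in KD and 12 in NC, while Col4a4 is given above. None of these passed without the filter (limma adjusted p of 0.0532 to 0.4). In the other 19 chains the groups overlapped. Col17a1 of epithelial hemidesmosomes had 118 reads in KD and 125 in NC. Col8a2, the partner of Col8a1, had 5, 22 and 22 reads in KD, against 9, 4 and 6 in NC. Of the 28 chains 17 had fewer than 20 reads in each group, where a modest difference was not detectable, among them Col2a1 and Col24a1.

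**Figure D5:**
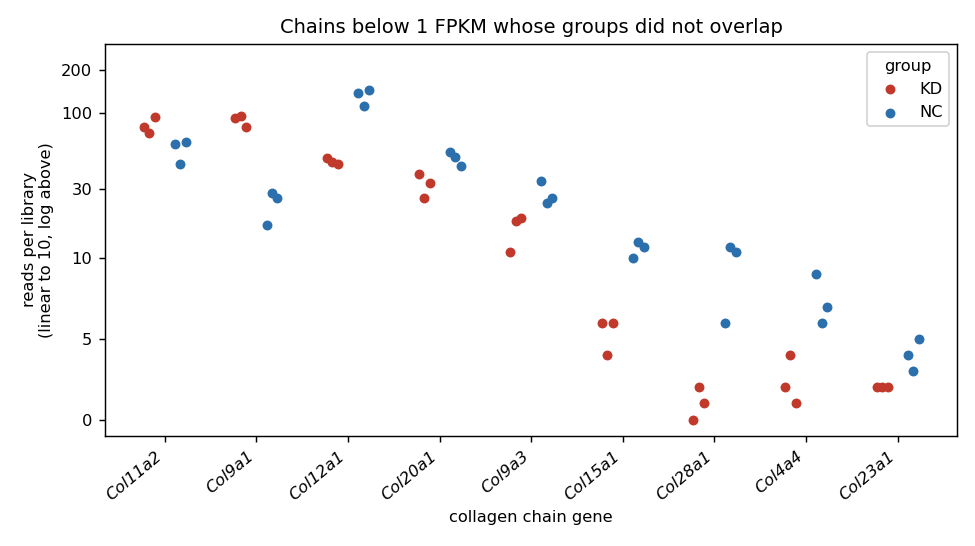
Reads per library, on an axis that is linear to 10 and logarithmic above, for the 9 chains below 1 FPKM whose groups did not overlap, with KD left of NC. Col9a1 and Col11a2 lie higher in KD and the other 7 lower, most of them on few reads.

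Of 55 tested genes that fold, process, bind, degrade or regulate collagen, 20 were higher and 3 lower in KD, with a median difference of 0.15, where 10.9% of all tested genes were higher and 13.6% lower. Of 16 tested genes for folding and hydroxylation of collagen in the endoplasmic reticulum 5 rose and 0 fell, with a median of 0.19. Among them, the prolyl isomerase genes Fkbp14 and Ppib averaged 4.88 ± 0.55 and 35.9 ± 3.2 FPKM in KD, against 2.46 ± 0.29 and 25.7 ± 0.42 FPKM in NC (SD, n = 3 each). The others that rose were Fkbp10, P3h1 and P4hb. Of 9 tested genes for procollagen processing and crosslinking 6 rose (Adamts2, Bmp1, Pcolce, Pcolce2, Loxl1 and Loxl4) and 1 fell (Loxl2). The list held 13 genes, and Lox, Adamts3, Tll1 and Tll2 were below the filter. The crosslinking enzyme gene Lox averaged 0.0347 FPKM over all libraries, and Adamts3 and Tll1 were at 0. Adamts2, which cuts the amino-terminal propeptide of fibrillar procollagens, averaged 14.3 ± 0.91 FPKM in KD and 4.59 ± 0.49 FPKM in NC (difference 1.45, SE 0.09, limma adjusted p = 0.000128). Loxl4, a crosslinking enzyme gene, averaged 16.1 ± 1.13 FPKM in KD and 11.1 ± 0.24 FPKM in NC. All 4 tested proteoglycans that bind fibrils rose, namely Fmod, Ogn, Bgn and Prelp. The list held 8 genes, and the others were below the filter, with Dcn at 0.00538 FPKM on average and Lum, Kera and Podn at 0. Fmod, which encodes fibromodulin, a regulator of fibril assembly, had 17.6, 18.1 and 19.4 FPKM in KD, against 0.979, 1.12 and 1.39 FPKM in NC (difference 3.16, SE 0.09, limma adjusted p = 7.13e-06). Prelp averaged 79.8 ± 1.48 FPKM in KD and 39.8 ± 2.53 FPKM in NC (difference 0.99, SE 0.06, limma adjusted p = 0.000165).

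Among 4 tested collagen receptors 2 rose and 1 fell. The collagen-binding integrin alpha subunits of the list were below the filter. Itga1, Itga2, Itga10 and Itga11 averaged 0.00428, 0.00436, 0.249 and 0.0343 FPKM over the 6 libraries. Mrc2, the receptor that takes up collagen fragments, had 8.28, 10.2 and 12.3 FPKM in KD, against 3.82, 3.96 and 3.84 FPKM in NC (difference 1.20, SE 0.13, limma adjusted p = 0.00147). The integrin subunit Itgb1 averaged 94.5 ± 8.59 FPKM in KD and 78.8 ± 1.11 in NC (adjusted p = 0.0458), and the collagen-binding kinase Ddr2 averaged 51.3 ± 3.71 in KD and 62.1 ± 2.31 in NC (adjusted p = 0.0298). Of 2 tested genes for collagen degradation, the lysosomal protease gene Ctsk fell to 7.30 ± 0.87 FPKM in KD, against 11.3 ± 0.48 in NC (limma adjusted p = 0.00591), and Mmp14 did not pass. Of 20 tested transcription and RNA regulators of collagen genes 3 rose and 0 fell, a share of higher genes near the 10.9% of all tested genes. They were Nfya, a subunit of the CCAAT-binding factor, with 10.4 ± 0.24 FPKM in KD and 7.79 ± 0.31 in NC (adjusted p = 0.00495), Smad3, which carries TGF-beta signals, with 17.7 ± 0.63 FPKM in KD and 13.6 ± 0.22 in NC (adjusted p = 0.00505), and Foxc2 with 7.31 ± 0.73 FPKM in KD and 5.46 ± 0.23 in NC (adjusted p = 0.0199). Without KD1, 10 of 16 folding genes rose and 1 fell, 7 of 9 processing genes rose and 1 fell, and 6 of 20 regulators rose and 2 fell. That fit called 20.9% of all tested genes higher and 21.5% lower. The share of regulators that rose was thus above that background, on few genes, and the share that fell was below it.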

How the data were processed

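Paired-end Illumina reads of total RNA were aligned with HISAT2 2.0.5, per the labels' protocols, and mm10 is the build in the submitters' processing notes. How reads were counted, whether by strand, and against which annotation is not given in the sources used here. For each gene the authors deposited FPKM per gene for the 6 libraries with positions and gene lengths per the file headers, and positions are given as deposited. All 44 chains had the same coordinates in GENCODE M21. Multiplying FPKM by gene length gave multiples of a fixed step within each library for 100% of values above 0 (tolerance 0.01), so reads were recovered, and whether they are reads or fragments is not stated. Median-of-ratios factors of the deposited columns were 1.0037 in all 6, so the columns were already level by that measure. Read totals were 0.978 to 0.990 of the library size behind FPKM in KD and 1.004 to 1.013 of it in NC. Intervals and the limit of 3 reads cover counting error only.

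Limma 3.58.1 in R 4.3.3 was fitted to log2(FPKM + 1) with group as the term and an intensity trend, over genes averaging 1 FPKM or more. Sums and ratios of chains were compared by exact permutation over libraries. A pseudocount understates fold changes of low genes. Voom scaled the recovered reads to their totals, not to the library size behind FPKM, so its differences include that change of scaling. GC content came from the longest GENCODE M21 transcript, for 99.9% of tested genes. Alternatives were other pseudocounts and filters, scalings, no trend, array weights, a replicate block, omission of each library, voom on the recovered reads, and removal of chromosome medians or of the dependence on GC and length (splines, 5 degrees of freedom). The code was tested on simulated data. The chains, lists and tests were chosen with earlier results of these data known. Every chain was accounted for, those with a mean of at least 1 FPKM with each library's value, and up to 4 genes past the threshold per other list were to be named. P4hb, Bmp1, Pcolce2 and Loxl2, beyond that limit, and Mmp14, not past the threshold, were named after their values were seen. The same holds for the processing and proteoglycan genes named as below the filter. Python 3.11.15 with pandas 2.3.3 and matplotlib 3.10.9 made the summaries and plots.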

Additional observations from a re-analysis of the deposited data

How the results depend on the processing

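With all 6 libraries 3 chains were higher and 6 lower. Leaving out 1 library gave 2 to 7 higher and 5 to 6 lower, voom on recovered reads 6 higher, and removal of the GC and length trend 5 higher, while the remaining alternatives gave 3 to 4 higher. Calls for Col1a1, Col3a1, Col4a5, Col5a3 and the 3 type VI chains passed in all 18 alternatives. Median-of-ratios scaling, 1 of them, had the same factor in all 6 libraries, so it nearly repeated the main fit and adds no support to calls, sums or ratios. The difference of Col4a1 turned positive with equal totals (0.0228), array weights (0.0877) and voom (0.0319), and ranged over -0.0963 to 0.105 when 1 library was left out. That of Col18a1 turned negative with the GC and length trend removed (-0.0431) and ranged over -0.0704 to 0.259. The log2 ratio of Col6a1 to Col6a3 ranged over -0.0658 to 0.0146, and no other ratio or sum turned sign. The causes were not tested. Replicates with the same number did not deviate strongly together (correlations 0.0791, -0.0434 and 0.154). Whether the numbers pair the libraries cannot be settled by so few values, and KD1 also deviated with GC content. With a replicate block 4 chains were higher and 6 lower, Col16a1 being added (limma adjusted p = 0.0435). With 3 libraries a group, exact permutation p-values of ratios and sums cannot go below 0.1.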
